A study of Mus musculus with 2 samples.

Results

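Contractile-high smooth muscle nuclei of the newborn mouse ureter are the top part of the muscle nuclei when these are ranked, over both libraries together, into 3 equal parts. They were chosen by the measured share that 6 contractile genes (Acta2, Tagln, Myl9, Actg2, Tpm2 and Cnn1) take of a nucleus's unique molecular identifiers (UMIs, the tags that count single RNA molecules). They number 1018 of 3056 muscle nuclei and of 14590 nuclei in all, 416 in DNp63cKO and 602 in control. Muscle nuclei were those with a UMI of at least 3 of 10 muscle genes (Myh11, Myocd, Synpo2, Cacna2d3, Ryr3, Stac, Myom1, Rbm24, Nexn and Dpp6), at most 1 of 4 endothelial and at most 2 of 8 epithelial genes. Since the share that chose them, called the contractile score here, is made of the same UMIs, every difference between contractile-high and other muscle nuclei below is a description and not a test.

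The DNp63cKO library was made from the pooled ureters of 14 mice with the genotype Pax2-cre/+;DNp63fl/fl;R26mTmG/+ at postnatal day 0, and the control library from 13 mice of the same age whose genotype is labelled wt. R26mTmG is a reporter that marks cells in which cre has acted, and the labels do not say whether the controls carried the driver or the reporter. The Pax2-cre driver is active in the nephric duct lineage, which forms the epithelium of the ureter, and the muscle studied here comes from the mesenchyme around it. Frozen tissue was thawed, pooled by genotype and made into 1 single-nucleus library per genotype, so differences lie between 2 libraries, have no replicate check and carry no p-value.

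Ureter smooth muscle moves urine from kidney to bladder by peristalsis. Its cells slide actin on myosin filaments (Acta2, Actg2, Myh11, Myl9) when calcium activates the myosin light chain kinase Mylk, with tropomyosins (Tpm1, Tpm2) and calponin (Cnn1) on the actin filaments. The cofactor myocardin (Myocd) and the serum response factor SRF switch these genes on through a promoter element called the CArG box. During development the urothelium sends Sonic hedgehog (Shh) to the mesenchyme, which answers through the receptor Ptch1 and the GLI factors, and Bmp4 and Foxf1 lie downstream.

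The libraries held 5528 and 9062 nuclei (DNp63cKO and control), where 10000 were aimed for in each, with 9859451 and 16063644 UMIs. Of these nuclei 5491 and 8889 were kept, and 58 barcodes occur in both libraries, 9 of them among the contractile-high nuclei. Trp63, the gene of the deleted isoform, had 20 UMIs in DNp63cKO contractile-high nuclei and 38 in control ones (20.5 and 35.04 CPM, UMI counts scaled to one total in every group of nuclei), against 99.0 and 170 CPM in nuclei that are not muscle. Which exons are lost is not stated in the labels, so these gene-level counts do not check the deletion. RNA of the urothelium reached nearly every muscle nucleus: 97.1% of DNp63cKO and 91.5% of control contractile-high nuclei held a UMI of a uroplakin, Psca or Sprr1a, which are urothelial genes.

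The contractile share was 1.78% of UMIs in the median DNp63cKO contractile-high nucleus (range 1.16 to 4.75%) and 1.86% in the median control one (1.15 to 4.57%), against 0.449% and 0.503% in the other muscle nuclei of each library. The last nucleus inside the threshold stood at 1.154% and the first outside at 1.153%. Within 10% of the threshold lay 234 nuclei, 118 inside and 116 outside it, so the members are a range of one score, and whether they form a type of their own was not tested. A median of 30 contractile UMIs in DNp63cKO and 22 in control stood behind each nucleus's value. All 6 genes were seen in 56.7% of DNp63cKO and 52.0% of control contractile-high nuclei.

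Among muscle nuclei, 27.4% were contractile-high in DNp63cKO (416 of 1517; exact 95% interval 25.2 to 29.7%) and 39.1% in control (602 of 1539; 36.7 to 41.6%). The intervals cover counting error only, which says nothing of the spread between mice or pools. Measured against all kept nuclei, the shares were 7.58% in DNp63cKO and 6.77% in control, while muscle nuclei as a whole made up 27.6% and 17.3%. Among muscle nuclei with an Xist UMI, a transcript of female cells, 26.4% (283 of 1070) were contractile-high in DNp63cKO and 31.3% (331 of 1057) in control. Among those with a Y-linked but no Xist UMI, the shares were 21.2% (33 of 156) and 54.5% (72 of 132). The share was lower in DNp63cKO in both groups, and the gap was wider among nuclei with a Y-linked UMI, a difference that was not tested. An Xist UMI was itself seen in 55.0% of contractile-high and 77.5% of other muscle nuclei in control. In DNp63cKO these shares were 68.0% and 71.5%. The split by Xist thus also follows the score, and how well it separates the sexes was not tested.

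The share of contractile-high nuclei also followed the mitochondrial RNA of the nuclei. Where mitochondrial genes took under 0.5% of UMIs, 7.37% of DNp63cKO and 13.9% of control muscle nuclei were contractile-high, and between 0.5 and 1% the shares were 19.6% and 26.6%. From 1 to 2% they were 54.9% and 65.2%, and from 2 to 5% they were 88% (198 of 225) and 85.4% (270 of 316). The DNp63cKO share was the lower one in the 3 lower bands and slightly the higher one in the top band, and the intervals of the libraries overlap in every band but the lowest.

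**Figure D1:**
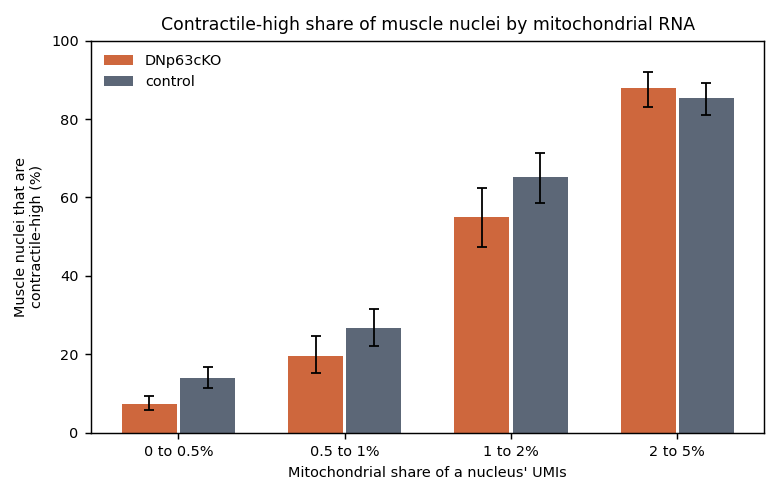
Percent of muscle nuclei that are contractile-high, by the share of a nucleus's UMIs from mitochondrial genes, for DNp63cKO (left bars) and control (right bars), with exact 95% intervals for counting error. Both libraries climb steeply, from 7.37% and 13.9% in the lowest band to 88% and 85.4% in the highest.

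The genes of the score were higher in contractile-high than in other muscle nuclei, as the choice of nuclei fixes. Acta2, smooth muscle actin, reached 7962 CPM in contractile-high against 1542 CPM in other muscle nuclei of DNp63cKO, and 8214 against 1663 CPM in control. Thinned to 700 UMIs per nucleus, which leaves out 39 DNp63cKO and 128 control contractile-high nuclei, 98.7% of DNp63cKO and 98.1% of control contractile-high nuclei held an Acta2 UMI, against 18.7% and 14.4% of nuclei with urothelial markers, which should lack the gene. The log2 ratios of contractile-high over other nuclei ran from 1.82 (Tagln) to 2.36 (Acta2) in DNp63cKO and from 1.71 (Actg2) to 2.30 (Acta2) in control. All log2 ratios here are of CPM + 5.

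Contractile genes outside the score were higher in these nuclei too. Of 34 measured genes of a wider contractile list, 18 were at least 1.5-fold higher in contractile-high than in other muscle nuclei in both libraries, where 10.9% of the 11000 genes with 20 or more UMIs were. The list's median log2 ratio was 0.66 in DNp63cKO and 0.70 in control, against medians of -0.24 and -0.16 over all those genes. Actc1, the cardiac actin that fetal smooth muscle also makes, stood at 568 CPM against 136 in DNp63cKO other muscle nuclei, and at 544 against 157 in control (log2 2.03 and 1.76). Des, the intermediate filament desmin, had log2 ratios of 1.66 and 1.70. Mylk, the kinase that starts contraction, had 1.25 and 1.37, and the filamin Flna 1.14 and 1.25. Reads of the actins Acta1, Acta2, Actc1, Actg1 and Actg2 may be split between near-identical copies.

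Of 33 genes of that wider list with a promoter in the RefSeq table (GRCm38.p6, from 250 bases before to 50 after a gene's start), 10 held a CArG box on either strand, against 1.806% of 27025 genes in all. Of the 6 score genes, 4 had an entry, Tagln and Actg2 having none, and 1 of the 4, Myl9, held the box. Of the 10 muscle genes, 6 had an entry and 1 of these held the box. The box was searched only as CC, 6 letters of A or T, and GG. Looser forms and boxes outside the window were not counted, so a gene without a match may still have one. The 4 windows shown are those of Myl9 and of the wider list's Actc1, Myl6 and Actg1, which were all higher in contractile-high nuclei (log2 1.52 and 1.37 for Myl6, 1.02 and 0.90 for Actg1), and each is 60 bases long with the box in capitals. The list's other genes with a box are not shown, and whether a box goes with a higher ratio was not tested. The box starts 161 bases before the start of Myl9, 47 before Actc1, 50 before Myl6 and 90 before Actg1. The windows lie at chr2:156775278-156775337 (plus strand), chr2:114052888-114052947, chr10:128493025-128493084 and chr11:120348551-120348610 (all minus strand). A match of letters describes the sequence and shows no binding.
Myl9: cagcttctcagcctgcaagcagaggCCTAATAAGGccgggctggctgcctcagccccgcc
Actc1: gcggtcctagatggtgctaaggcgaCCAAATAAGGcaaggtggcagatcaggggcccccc
Myl6: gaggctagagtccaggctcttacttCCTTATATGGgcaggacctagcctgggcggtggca
Actg1: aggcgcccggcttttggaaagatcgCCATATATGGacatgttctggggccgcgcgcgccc

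The 10 genes that called muscle nuclei were mixed. Of them, 1 was at least 1.5-fold higher and 3 lower in both libraries, against 10.9% and 18.2% of all genes with 20 or more UMIs. Myh11, the smooth muscle myosin heavy chain, was higher in contractile-high nuclei, at 4811 CPM against 2794 in DNp63cKO and 5002 against 2930 in control (log2 0.78 and 0.77). Myocd, the myocardin gene, was lower, at 438 against 758 CPM in DNp63cKO and 430 against 843 CPM in control (log2 -0.79 and -0.96). Ryr3, a calcium release channel of the internal store, had 226 against 456 CPM in DNp63cKO and 231 against 382 CPM in control, Stac log2 ratios of -0.68 and -0.76, and Cacna2d3, a calcium channel subunit, -0.73 and -0.37. The median of the 10 was -0.47 and -0.32. Among muscle nuclei with at most 1% mitochondrial UMIs, the same median was 0.54 in DNp63cKO and 0.36 in control, with Ryr3 at 0.36 and 0.08 and Myocd at 0.15 and -0.24.

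Contractile-high nuclei carried far more RNA of ribosomal protein genes. These genes took 7.94% of UMIs in DNp63cKO and 6.01% in control contractile-high nuclei, 2.61% and 2.43% in the middle part of the muscle nuclei, and 1.72% and 1.54% in the bottom part. All 73 measured ribosomal protein genes were at least 1.5-fold higher than in other muscle nuclei in both libraries. Mitochondrial genes took a median of 1.88% and 1.80% of a contractile-high nucleus's UMIs, against 0.339% and 0.400% in the other muscle nuclei. Nuclear genes of oxidative phosphorylation, which build the respiratory chain, took 1.22% and 1.06%, against 0.413% and 0.422%. Of 27 such genes measured, 25 were at least 1.5-fold higher in both libraries, with medians of 1.67 and 1.28.

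Transcripts that stay in the nucleus went the other way. Malat1, a long noncoding RNA held in nuclear speckles, took 1.23% of UMIs in DNp63cKO and 0.965% in control contractile-high nuclei, against 3.06% and 2.60% in the other muscle nuclei. All 6 measured nuclear-retained transcripts were at least 1.5-fold lower in both libraries (medians -1.35 and -1.25), Meg3 at -1.68 and -1.57 and Neat1 at -1.39 and -1.28. Contractile-high nuclei had a median of 1520.5 UMIs in DNp63cKO and 1177.5 in control, against 1256 and 971 in other muscle. Haemoglobin, which muscle does not make, was seen in 53.6% and 36.5% of them, against 27.9% and 14.3%. Ribosomal, mitochondrial and haemoglobin RNA thus moved with the score, and their part in the gene differences was not tested.

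**Figure D2:**
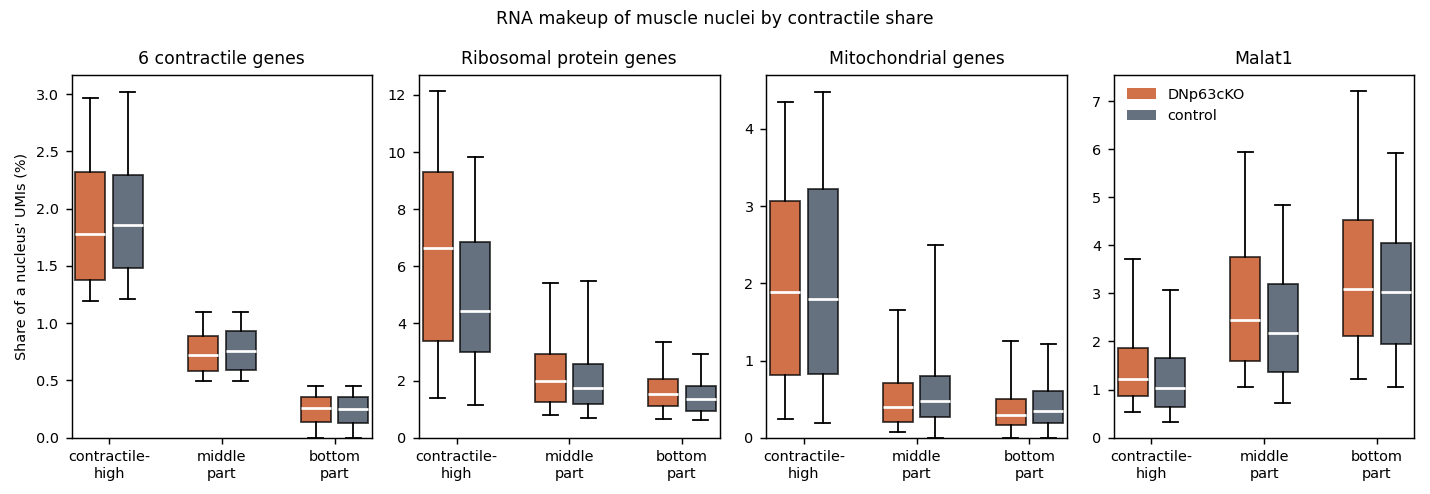
Share of each nucleus's UMIs (percent) in the 6 contractile genes, the ribosomal protein genes, the mitochondrial genes and Malat1, for the 3 parts of the muscle nuclei by contractile share, DNp63cKO left of control. Boxes span the quartiles with the median as a white line and whiskers the 5th to 95th percentile; contractile-high nuclei have the highest ribosomal and mitochondrial and the lowest Malat1 medians in both libraries.

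Per 100 ribosomal protein UMIs, contractile-high nuclei held 25.5 contractile UMIs in DNp63cKO and 34.4 in control, the middle part 28.5 and 31.8, and the bottom part 14.1 and 15.8. Set against ribosomal protein RNA, the top and middle parts were close to each other, and both stood above the bottom part. The contractile UMIs counted here are those that ranked the nuclei, so the order of the parts is partly set by the ranking. Per 100 UMIs of oxidative phosphorylation genes, contractile-high nuclei held 166 and 196 contractile UMIs, the middle part 162 and 157, and the bottom part 64.5 and 69.0.

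Mitochondrial and contractile RNA went together in fibroblast-marker but not in urothelium-marker nuclei. In nuclei with fibroblast markers, the top 1 of 3 parts by mitochondrial RNA had a contractile share of 0.487% in DNp63cKO and 0.697% in control, against 0.155% and 0.157% in the rest. In nuclei with urothelial markers, the like part had 0.0696% and 0.0554%, against 0.0945% and 0.0557%. More ribosomal protein RNA came with more mitochondrial RNA in both kinds of nuclei, at 3.58% against 1.46% (DNp63cKO) and 3.99% against 1.31% (control) in the fibroblast-marker nuclei, and at 2.87% against 2.35% and 2.33% against 2.01% in the urothelium-marker nuclei.

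The difference between contractile-high and other muscle nuclei followed the length of the gene. Genes shorter than 5 kb had a median log2 ratio of 0.97 in DNp63cKO and 0.88 in control (550 genes), genes of 5 to 20 kb 0.17 and 0.23, and genes of 20 to 60 kb -0.35 and -0.26. For 60 to 200 kb the medians were -0.60 and -0.51, and above 200 kb they were -0.85 and -0.80 (547 genes). The 6 score genes are 6.24 to 23.4 kb long, while Ryr3 spans 586 kb, Cacna2d3 817 kb and Myocd 93.4 kb. The score genes lie above the medians of their own length bins, which follows from the choice of nuclei by their share. Myh11 (96.8 kb) and Synpo2, an actin-binding protein (160 kb, log2 0.30 and 0.22), also lie above theirs. Both are among the genes that called muscle nuclei. Mylk spans 257 kb and was still more than 2-fold higher.

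**Figure D3:**
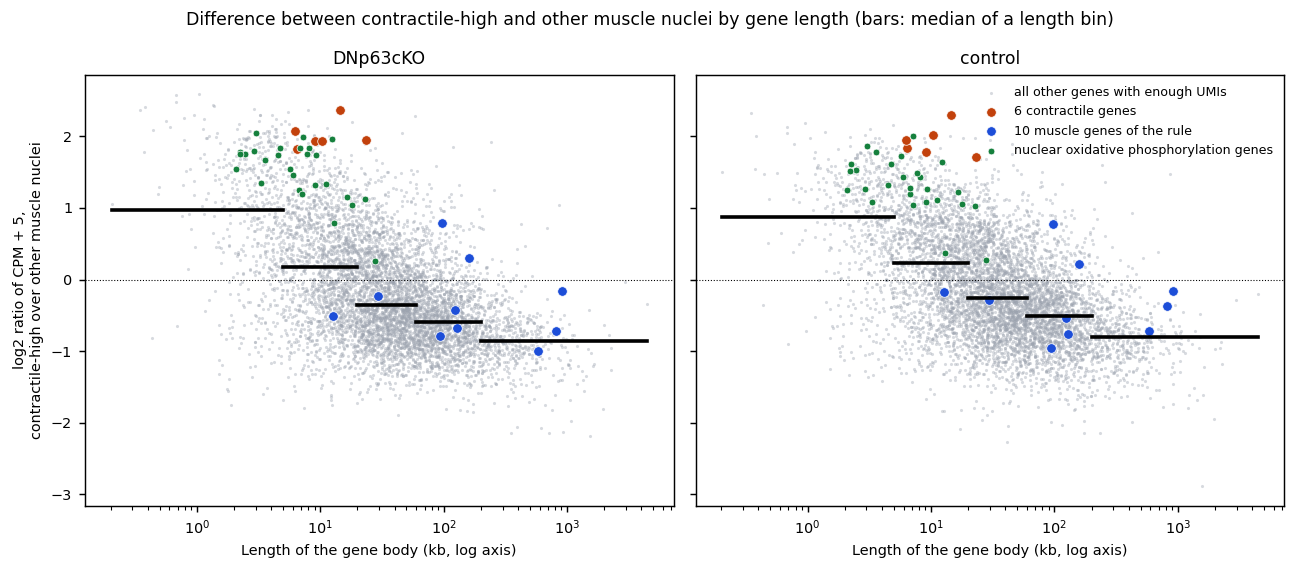
Each point is a gene, with the length of its gene body (kb, log axis) against its log2 ratio of CPM + 5 in contractile-high over other muscle nuclei, DNp63cKO left and control right. Black bars are medians of length bins and step down from 0.97 and 0.88 below 5 kb to -0.85 and -0.80 above 200 kb; the score genes (orange) and oxidative phosphorylation genes (green) sit at the top left, most muscle genes of the rule (blue) among the long genes below 0.

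Over all 6582 genes with enough UMIs, 942 (14.3%) were at least 1.5-fold higher in contractile-high nuclei in both libraries and 1621 (24.6%) at least 1.5-fold lower. With median-of-ratios scaling in place of totals the counts were 1404 higher and 718 lower. Among the highest genes outside the score were Pcp4, a calmodulin-binding peptide (2.29 and 2.12), Bst2, the antiviral membrane protein tetherin (2.22 and 2.10), Ckm, the muscle creatine kinase (2.20 and 1.98), Car3, carbonic anhydrase 3 (1.93 and 1.92), and Cavin3, a coat protein of caveolae (1.97 and 1.87). The other 10 of the 15 highest were 4 ribosomal protein genes, 3 genes of the respiratory chain and ATP synthase, among them Ndufa4 (2.00 in both), and Tpt1, Snrpd2 and Dctpp1. The lowest was Dlg2, a scaffold gene of 1973 kb (-1.81 and -1.95), followed by Adgrb3 (-1.83 and -1.79).

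Below 1% mitochondrial RNA the contractile-high nuclei, 118 in DNp63cKO and 182 in control, still held more of several of these transcripts. Pcp4 had log2 ratios of 1.39 and 1.71 over other low-mitochondrial muscle nuclei, Car3 1.04 and 1.94, and Ckm 1.32 and 1.93. The wider contractile list kept medians of 0.69 and 0.76 there, and Des 1.55 and 1.62. The ribosomal protein genes had medians of 0.68 and 0.79, less than the 1.88 and 1.58 among all muscle nuclei. Between the low-mitochondrial nuclei 247 genes were at least 1.5-fold higher and 496 lower in both libraries.

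Genes of calcium and ion channels stood mostly lower per UMI in contractile-high nuclei, and receptors of contraction did not share one direction. Of 33 measured genes of the calcium and ion channel list, 4 were at least 1.5-fold higher and 10 lower in both libraries, against 10.9% and 18.2% of all genes with 20 or more UMIs. Gja1, the gap junction protein connexin 43, was among the higher ones (1.41 and 1.22), with Kcnj8, a subunit of the ATP-sensitive potassium channel (0.82 and 1.19), Kcnmb1 (0.99 and 0.80) and Jph2, which ties the store to the membrane (0.72 and 0.88). Slc8a1, the sodium-calcium exchanger (365 kb; -0.74 and -0.77), Kcnma1, the large-conductance potassium channel (725 kb; -0.75 and -0.76), and Ano1, a chloride channel (163 kb; -0.87 and -0.81), were among the lower ones. The list's medians were -0.53 and -0.27 in all muscle nuclei and 0.20 and 0.35 in those with at most 1% mitochondrial UMIs. Of 23 measured receptor and signalling genes of contraction, 5 were higher and 1 lower in both libraries (medians -0.16 and 0.11), with Rgs2, a brake on receptor signals, at 1.25 and 1.48 and Ednrb, an endothelin receptor, at 0.85 and 0.66.

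The markers of neighbouring cell types set the label in its surroundings. Fibroblast markers were seen throughout, with a summed level of 8776 CPM in DNp63cKO and 8876 CPM in control contractile-high nuclei. Other muscle had 6360 and 5785 CPM, and nuclei outside muscle, urothelium included, 4975 and 3730 CPM. At unequal depth, 2 or more of Pdgfra, Dcn, Lum, Dpt and Tcf21 were seen in 63.5% and 59.6% of contractile-high nuclei. In other muscle they were seen in 41.5% and 26.0%. Of 11 measured fibroblast genes, 2 were at least 1.5-fold higher than in other muscle in both libraries and 1 lower. Among all genes with 20 or more UMIs, 10.9% were higher and 18.2% lower. The 2 higher genes were Lum, a matrix proteoglycan (0.88 and 1.15), and Tcf21, a mesenchymal transcription factor (0.67 and 0.79). The lower one was Clec3b, tetranectin (-0.63 and -0.75). The list's medians were 0.39 and 0.45, and -0.19 and 0.13 in nuclei with at most 1% mitochondrial UMIs. Of the pericyte list 8 of 12 genes were measured, with 632 and 693 CPM in all against 628 and 682, and of the vascular smooth muscle list 6 of 14, with 464 and 505 CPM against 817 and 710. Of the skeletal muscle list 4 of 12 were measured, with 192 and 223 CPM in all against 78.2 and 126, and 3 of them (Ckm, Acta1 and Tnnc2) were at least 1.5-fold higher in both libraries. Its defining genes Myod1, Myog and Chrna1 had no UMI in contractile-high nuclei of either library, which allows up to 3 UMIs each. Endothelial markers summed to 271 and 285 CPM, against 251 and 228 in other muscle, and macrophage markers to 99.7 and 42.4 CPM, against 149 and 123. The part of these RNAs in the results was not tested.

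Between the genotypes, the contractile genes of these nuclei differed little. Acta2 had 7962 CPM in contractile-high nuclei of DNp63cKO and 8214 CPM in those of control, Actg2 at 2976 and 3103 CPM, Tagln at 2695 and 2834 CPM, Myl9 at 3665 and 3478 CPM, and Tpm2 at 2099 and 1976 CPM. Cnn1, calponin, was the lowest of the 6, at 884 CPM in DNp63cKO against 1055 CPM in control (log2 -0.25, 95% counting interval -0.39 to -0.13). Without a urothelial UMI, which left only 12 and 51 contractile-high nuclei, its ratio was 0.75. None of the 6 and none of the 10 muscle genes reached 1.5-fold, and both medians were -0.05. A choice of nuclei by the summed score limits how far its genes can differ, and the counting intervals say nothing of the spread between mice.

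In the wider contractile list 27 of 34 genes stood below 0 in DNp63cKO over control, with a median of -0.14, where 56.1% of 11000 genes did and their median was -0.05. One gene was at least 1.5-fold higher and 1 lower, against 4.24% and 6.15% of those genes. Lmcd1, a LIM domain protein, had 75 CPM in DNp63cKO and 46.1 CPM in control (log2 0.65), and Acta1, skeletal actin, 24.7 and 50.7 CPM (-0.91). The LIM proteins Csrp1 (460 against 613 CPM; -0.41) and Pdlim3 (661 against 886 CPM; -0.42) also stood lower, as did Fhl1 (120 against 181 CPM; -0.57). Mylk had 6004 against 6772 CPM (-0.17; -0.22 to -0.12).

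Genes that tie muscle cells to their matrix also stood mostly below 0. Of 31 measured genes of dystrophin, integrin and caveola proteins, 29 stood below 0 in DNp63cKO contractile-high nuclei. Of all genes with 20 or more UMIs, 56.1% did, with a median of -0.05. The list's median was -0.26, against -0.10 in the other muscle nuclei and -0.03 in contractile-high nuclei with at most 1% mitochondrial UMIs. Sspn, Itga5 and Itgb3 were at least 1.5-fold lower, 3 of 31 where 6.15% of all genes with 20 or more UMIs were. Itga5, the fibronectin receptor subunit, had 80.1 CPM in DNp63cKO and 130 CPM in control (log2 -0.67; -1.12 to -0.29), and Cavin2, a caveola coat protein, 226 and 330 CPM (-0.54; -0.80 to -0.30). Of 18 basement membrane genes, 16 stood below 0 and 2 were at least 1.5-fold lower, against the same 56.1% and 6.15% of all genes. Their median was -0.26 in contractile-high and -0.27 in other muscle nuclei. Col4a1, a chain of the main basement membrane collagen, had 1093 CPM in DNp63cKO and 1487 CPM in control (-0.44; -0.56 to -0.33), and the laminin chain Lamb1 115 and 186 CPM (-0.67; -1.04 to -0.35).

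Of the hedgehog genes, Ptch1, Hhip, Foxf1 and Smoc1 had counting intervals below 0 in DNp63cKO over control contractile-high nuclei. Ptch1, which receives Shh and is itself switched on by it, had 132 CPM in DNp63cKO (128 UMIs) and 243 CPM in control (264 UMIs), a log2 ratio of -0.86 (-1.20 to -0.58). Without a urothelial UMI, which left 12 and 51 contractile-high nuclei, the ratio turned to 0.62 and that of Foxf1 to 3.0. The other muscle nuclei had -0.84, close to the contractile-high value. Hhip, which binds Shh and is also a target, had 144 and 211 CPM (-0.54; -0.87 to -0.24), against -0.92 in other muscle. Foxf1, a mesenchymal target factor, had 90.4 and 136 CPM (-0.56; -0.98 to -0.19), against -0.15 in other muscle, and Bmp4 80.1 and 107 CPM (-0.40; -0.85 to 0.01). Smoc1, a matricellular BMP modulator, had 29 and 76 UMIs (-1.11; -1.90 to -0.60). The transcription factors of the pathway did not share one direction: Gli1 stood at -0.44 (45 and 70 UMIs; -1.06 to 0.08), Gli2 at 0.36 and Gli3 at 0.10.

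Of the 18 measured hedgehog genes, 14 stood below 0 and 3 (Ptch1, Smoc1 and Foxl1) were at least 1.5-fold lower, where 56.1% and 6.15% of all genes with 20 or more UMIs were. Their median was -0.26, against -0.05 over all genes, and Foxl1 rests on 5 and 17 UMIs. In other muscle the median was -0.04 and 2 were as much lower. Thinned to 700 UMIs, 7.43% of DNp63cKO and 14.8% of control contractile-high nuclei had a Ptch1 UMI, against 3.12% and 3.795% of nuclei with urothelial markers, whose median depths were 2481 and 2934 UMIs. For Hhip the shares were 7.96% and 15.2%, against 0.585% and 0.530%. In fibroblast-marker nuclei, thinned likewise, the Ptch1 shares were 8.86% in DNp63cKO and 10.2% in control, and the Hhip shares 2.34% and 4.66%. Gas1, also on the hedgehog list, went the other way, with thinned shares of 16.2% in DNp63cKO and 12.9% in control contractile-high nuclei. The Smoc1 share of DNp63cKO contractile-high nuclei, 1.06%, was no higher than the 1.17% of the urothelium-marker nuclei and is read as background. Shh itself, made by the urothelium, had 8 UMIs in DNp63cKO contractile-high nuclei and 36 in control ones.

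Among channels, Ano1 had 250 CPM in DNp63cKO and 391 CPM in control contractile-high nuclei (log2 -0.64; -0.88 to -0.42), and -0.57 in other muscle. Outside muscle it had 345 and 581 CPM, above the level in contractile-high nuclei of either library, so free RNA and muscle RNA cannot be told apart for this gene. Gja1 had 96.6 and 59.9 CPM (0.65; 0.22 to 1.17), Atp2a2, the calcium pump of the store, 869 and 1082 CPM (-0.31; -0.44 to -0.19), and the potassium channel Kcnd3 34.9 and 73.8 CPM (-0.98). Of the 33 genes, 1 was at least 1.5-fold higher and 3 lower, close to the 4.24% and 6.15% of all genes. Among the receptors, Ptger2, for prostaglandin E2, had 43 and 22 UMIs (0.96; 0.35 to 1.93) and Chrm3, the muscarinic receptor, 30 and 54 UMIs (-0.61; -1.39 to -0.02).

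**Figure D4:**
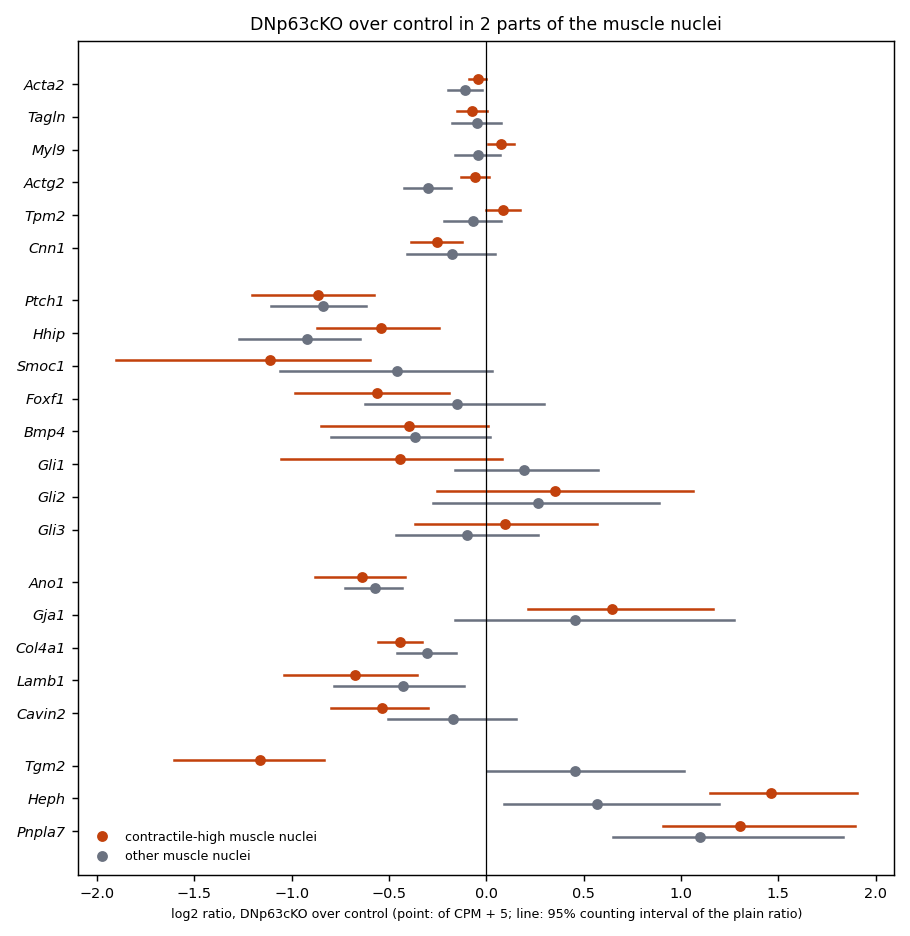
Log2 ratio of DNp63cKO over control for named genes in contractile-high (orange, upper) and other muscle nuclei (grey, lower); points are ratios of CPM + 5 and lines the exact 95% counting intervals of the plain ratio, which do not cover the spread between mice. The contractile genes lie near 0, Ptch1 near -0.85 in both kinds of nuclei, and Tgm2 at -1.16 in contractile-high against 0.46 in other muscle nuclei.

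Over all 5255 genes with enough UMIs, 115 (2.19%) were at least 1.5-fold higher and 197 (3.75%) at least 1.5-fold lower in DNp63cKO contractile-high nuclei, and 151 and 146 with median-of-ratios scaling. Heph, hephaestin, an enzyme that oxidizes iron on its way out of cells, had 220 CPM in DNp63cKO (214 UMIs) and 76.5 CPM in control (83 UMIs), a log2 ratio of 1.46 (1.15 to 1.91), against 0.57 in other muscle. In nuclei with at most 1% mitochondrial UMIs its ratio was 0.87. Pnpla7, a lysophospholipase, had 123 and 47.0 CPM (1.30), and 1.10 in other muscle. The adhesion protein Negr1 had 54 and 25 UMIs (1.11). The other 7 of the 10 highest were Fam189a2, Sh3gl3, the respiratory chain genes Ndufa3 (1.16) and Atp5k (1.03), and Rps29 (1.11), Rps27rt and Rps18-ps5, the last pair being near-copies of ribosomal protein genes whose counts are uncertain.

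Tgm2, transglutaminase 2, which crosslinks proteins, was the lowest, with 81.2 CPM in DNp63cKO (79 UMIs) and 188 CPM in control (204 UMIs), a log2 ratio of -1.16 (-1.61 to -0.83). In other muscle nuclei it had 63.4 and 44.9 CPM (0.46). Control contractile-high nuclei thus stood apart from the other 3 groups. Mme, the peptidase neprilysin, had 65.8 and 128 CPM (-0.91), against -0.09 in other muscle, and Enpep, aminopeptidase A, 44.2 and 88.5 CPM (-0.93), against -0.78. The remaining genes of the lowest 10 were Hspb11, an intraflagellar transport protein (-1.12), Fam199x (-1.10), the centromere gene Cenpk (-1.06) and Mustn1 (-0.97), beside Smoc1, Kcnd3 and Acta1.

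Ribosomal protein genes differed between the genotypes as a group within these nuclei. Of 73 measured, 72 stood above 0 in DNp63cKO over control and 12 were at least 1.5-fold higher, where 4.24% of all genes with 20 or more UMIs were and 56.1% stood below 0. The median was 0.36, against 0.07 in other muscle. In contractile-high nuclei with at most 1% mitochondrial UMIs the median was 0.19. A higher ribosomal share of UMIs in DNp63cKO was also seen outside muscle, at 2.81% against 2.40% in control. Nuclei with endothelial markers had 5.27% and 3.92%, and urothelium-marker nuclei 2.54% and 2.14%. Fibroblast-marker nuclei went the other way, at 2.17% and 2.27%. Nuclear oxidative phosphorylation genes had a median of 0.25 with 22 of 27 above 0, and -0.28 in the low-mitochondrial nuclei, of the opposite sign. The median mitochondrial share itself was 1.88% in DNp63cKO and 1.80% in control contractile-high nuclei.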

How the data were processed

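The authors deposited whole UMI counts for every gene in every nucleus, without normalization. Per the submitters' processing notes, which give no roles, the tools were Seurat 4.0.5, R 4.0.5, STAR 2.7.11a and STARsolo, and the build was mm10. How barcodes were filtered and whether intron reads were counted is not given in the sources used here. Of 32589 gene IDs, 32445 were found in GENCODE M21, the source of lengths, and 48 symbols with several IDs were summed. Kept nuclei had at least 300 genes and 5% or less of their UMIs from mitochondrial genes. Scrublet's automatic threshold marked 0 doublets and so had not worked, and none were removed.

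UMIs were summed by library and kind of nucleus, scaled to CPM, and compared as log2 ratios of CPM + 5. A gene entered at 50 CPM in either library with 50 UMIs in all, a list gene at 20 UMIs. A 1.5-fold threshold stands in for a test, as each group has 1 library. Exact 95% intervals are conditional binomial for ratios, without the added 5 CPM, and Clopper-Pearson for percent shares. Fibroblast-marker nuclei had 3 or more of 10 fibroblast genes and urothelium-marker nuclei 4 or more of 8 epithelial genes. Named genes are those of the rule, the 10 highest and 10 lowest between genotypes that stood at least as high as outside muscle, the 15 highest and 10 lowest between contractile-high and other muscle, up to 6 of each list with the largest ratios, and contractile, regulator and hedgehog genes with 50 or more UMIs; any others were chosen after their values were seen. Members and lists were chosen with earlier results of these data known. The ratio function was tested on simulated data (scanpy 1.11.5, scipy 1.17.1). Alternatives tried were other thresholds, scalings, added CPM, UMI minimums and subsets of nuclei. One gene of the wider contractile list is not reported here.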

Additional observations from a re-analysis of the deposited data

Results flagged for a closer look

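Tgm2 differed between genotypes in opposite directions in the parts of the muscle. Its log2 ratio of DNp63cKO over control was -1.16 in contractile-high nuclei and 0.46 in other muscle nuclei, and the difference between these was not tested, since each group has 1 library. Thinned to 700 UMIs per nucleus, 5.04% of DNp63cKO and 11.8% of control contractile-high nuclei held a Tgm2 UMI, against 4.25% and 2.53% of other muscle nuclei and 1.36% and 1.5% of urothelium-marker nuclei.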

How the results depend on the processing

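No paired analysis was possible because each genotype has 1 library, and leaving out a replicate would leave none. The share of muscle nuclei that were contractile-high, -11.7 percentage points for DNp63cKO minus control, kept its sign; where nuclei were ranked within each library the share is fixed by construction (33.29% and 33.33%). It was -7.70 among nuclei with at most 1% mitochondrial UMIs, -4.87 among those with an Xist UMI, -33.4 among those with a Y-linked and no Xist UMI, and -25.5 among those without a urothelial UMI (47 and 100 muscle nuclei); the first 3 were chosen after seeing the data.

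Counts of genes 1.5-fold higher and lower in DNp63cKO moved from 115 and 197 to 67 and 78 with CPM + 20, 466 and 676 with 20 or more UMIs, 1113 and 1123 with 1 or more, and 264 and 386 with means over nuclei. Without a urothelial UMI they were 6 and 13 of 69 genes tested. The lower count was 129 when the upper 50% of muscle nuclei were taken and 83 in Y-linked nuclei without Xist. Genes higher in contractile-high than other muscle moved to 33 without a urothelial UMI and 247 at most 1% mitochondrial UMIs, and genes lower to 20 and 496, to 718 with median-of-ratios scaling, 2440 and 2566 with 20 or more and 1 or more UMIs in either part, and 1010 with means over nuclei.

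Of the named genes reported past 1.5-fold, 7 changed sign or came to 0 under an alternative, in 8 values. Among those under 1.5-fold 29 values of 13 genes did, Foxf1 (3.0) and Cnn1 (0.75) without a urothelial UMI and Actg2 (0.20) in Y-linked nuclei among them. Without a urothelial UMI (12 and 51 contractile-high nuclei) Rps29 was -0.26, Fam189a2 -2.57, Sh3gl3 0.00, Enpep 2.03 and Ptch1 0.62; in Y-linked nuclei Hspb11 was 0.80; at most 1% mitochondrial UMIs Rps27rt was -0.058 and Sh3gl3 -1.07. The cause was not tested. Apart from the 8 values past 1.5-fold, 534 values per named gene and alternative lay within the counting interval of the reported ratio and 70 outside it. The 29 values under 1.5-fold are counted among these. With 1 library per genotype, depth limits genes under about 50 UMIs, and differences between mice cannot be told apart from genotype.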

Other observations

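Sfrp2, a secreted WNT modulator, had 1028 CPM in DNp63cKO and 733 CPM in control contractile-high nuclei, against 228 and 232 CPM in other muscle nuclei (log2 2.15 and 1.64). It stayed higher among nuclei with at most 1% mitochondrial UMIs, at 1.69 and 1.41. Nkd1, a feedback target of WNT signalling, had 1.19 and 0.82, and the receptor Fzd1 1.06 and 0.97. Wnt4 was lower in contractile-high nuclei, at -1.08 and -1.80, and had 228 and 182 CPM outside muscle. Between genotypes Dkk2, a WNT antagonist, had 48 and 19 UMIs in DNp63cKO and control contractile-high nuclei (1.27), and Dkk3 115 and 199 UMIs (-0.61).

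Cell cycle genes gave mixed values. Of 20 DNA replication genes, 7 were at least 1.5-fold higher in contractile-high than in other muscle nuclei in both libraries and 2 lower, against 10.9% and 18.2% of all genes with 20 or more UMIs, with Pcna, the sliding clamp of DNA polymerase, at 1.38 and 0.97. Among low-mitochondrial nuclei Pcna had 0.31 and 0.68. Of 20 mitosis genes 1 was higher and none lower. In DNp63cKO over control the mitosis median was -0.19 with 3 of 20 at least 1.5-fold lower (Aspm, Plk1 and Anln), against 6.15% of all genes, and the replication median was 0.02.

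BMP genes had a median of -0.08 in DNp63cKO over control contractile-high nuclei, with Fst (6 and 20 UMIs) and Smad5 (48 and 88 UMIs) at least 1.5-fold lower of 20 measured. Among 9 Notch genes Jag2 (17 and 35 UMIs) and Nrarp (10 and 30 UMIs) were as much lower, and of 19 TGF-beta genes none was past 1.5-fold in either direction. Over all genes with 20 or more UMIs, 4.24% were higher and 6.15% lower by that much. Cdkn1c, a brake on the cell cycle, was higher in contractile-high than in other muscle nuclei in both libraries (1.01 and 1.27), with 189 CPM in contractile-high nuclei of DNp63cKO and 125 CPM in those of control.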
